A study of Mus musculus with 8 samples.

Results

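The genes of the proteasome were compared between mouse bone marrow mesenchymal stem cells (MSCs) carrying Myc-L63RhoA, a constitutively active form of the small GTPase RhoA, and the same cells carrying empty vector (EV). They were chosen by symbol: all array probes whose gene symbol begins with Psma, Psmb, Psmc, Psmd, Psme or Psmg followed by a digit, except the inducible subunit genes Psmb8 and Psmb9. The rule took 65 of 25697 probes, which stand for 43 of 16593 named genes. A detectable signal was present for 59 of these probes and 41 of these genes, and these 41 are among the 8360 genes that were tested. The rule used names and no measured value.

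The proteasome is the main protease of the cytosol and nucleus, and degrades proteins that carry ubiquitin chains. Its catalytic core is a barrel of α and β rings, with the active sites on β subunits. A regulatory cap binds ubiquitin chains, removes them, and unfolds substrates with a ring of ATPases, while other activators open the barrel without ubiquitin. Interferon replaces the catalytic β subunits with inducible ones, and turnover of proteins by the proteasome is part of ordinary housekeeping in MSCs as in other cells.

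Both groups were MSCs from mouse bone marrow at passage 6, transfected by lipid reagent with 1 of the 2 plasmids, and each group was measured on 4 one-colour Illumina bead arrays. GEO's sample records put RNA extraction at 48 h after transfection, whereas the series' design text has the cells harvested after 3 days. The same text speaks of 4 separate experiments, but nothing in the records ties a replicate number to an experiment. The cells were a transfected population rather than a clone, and the share of cells that took up the plasmid is not stated in the sources used here, so that a change in few cells and a smaller change in many cannot be told apart. The only probe for Rhoa was detected on 0 of 8 arrays, and so neither the transgene nor endogenous Rhoa could be checked in these data.

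Mean signal per array ranged from 274 to 377 in EV and from 320.1 to 350 in L63RhoA, and between 11925 and 12981 probes were detected per array. The arrays correlated with each other at r between 0.977 and 0.995 over all genes, and no 2 were duplicates. Of 11 MSC markers with a probe, 9 were detected, Thy1 and Lepr being the exceptions, whereas Ptprc, Itgam, Cd3e, Lyz2 and Adgre1, markers of blood cells, were not. Cd14, the remaining blood cell marker with a probe, was detected on 8 of 8 arrays, with a log2 level of 8.05 to 8.16 in EV and 8.07 to 8.19 in L63RhoA. Summed over the 9 MSC markers, the normalised intensity was 4011 to 5012 on EV arrays and 3785 to 4904 on L63RhoA arrays. Of 6 endothelial markers, Pecam1, Cdh5 and Emcn were not detected, and the 3 others summed to 86.7 to 99.3 on EV arrays and 90.9 to 153 on L63RhoA arrays. At an adjusted p under 0.20, Tek was called among the endothelial markers (log2 fold change of 0.47, adjusted p = 0.087) and Cd44 and Nes among those of MSCs (-0.33 and -0.26), and their part in any result was not tested. Within groups, a single pattern over genes held 48.2% of the variance, and on it EV replicate 3 (score of 17.59, against -11.72 to 4.94 for the other EV arrays) and L63RhoA replicate 1 (score of -17.37, against 4.56 to 6.76 for the other L63RhoA arrays) stood apart. Values without each of these arrays are given below for the genes called at an adjusted p under 0.20 among the proteasome genes and their partners. Of all genes, 37.8% passed 0.20 without EV replicate 3 and 42.8% without L63RhoA replicate 1. Without any of EV replicates 2 and 4 or L63RhoA replicates 2, 3 and 4, no proteasome gene passed 0.20.

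No proteasome gene passed an adjusted p of 0.05 (limma), at which 0.706% of all genes tested were called, 0.383% higher and 0.323% lower in L63RhoA. At a false discovery rate of 0.20, the cutoff named in the study's methods, 7 of the 41 were called, 4 upregulated (Psmb10, Psmd5, Psmc4 and Psmd4) and 3 downregulated (Psmd14, Psmd6 and Psmc6). The same cutoff called 23.6% of all genes, 13.1% higher and 10.4% lower, whereas the proteasome genes gave 17.1%, 9.76% higher and 7.32% lower. Before adjustment, p was under 0.05 for the same 7 members, 4 higher (9.76%) and 3 lower (7.32%), against 24.4% of all genes, 13.7% higher and 10.7% lower. Up and down were evenly divided over the whole set: 21 genes were above 0 and 20 below, against 52.2% above 0 among all genes. The median log2 fold change of the 41 genes was 0.04, and that of all genes 0.01. The share of called proteasome genes was thus near that of all genes or below it, and no shift of the complex as a whole in either direction was seen.

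**Figure D1:**
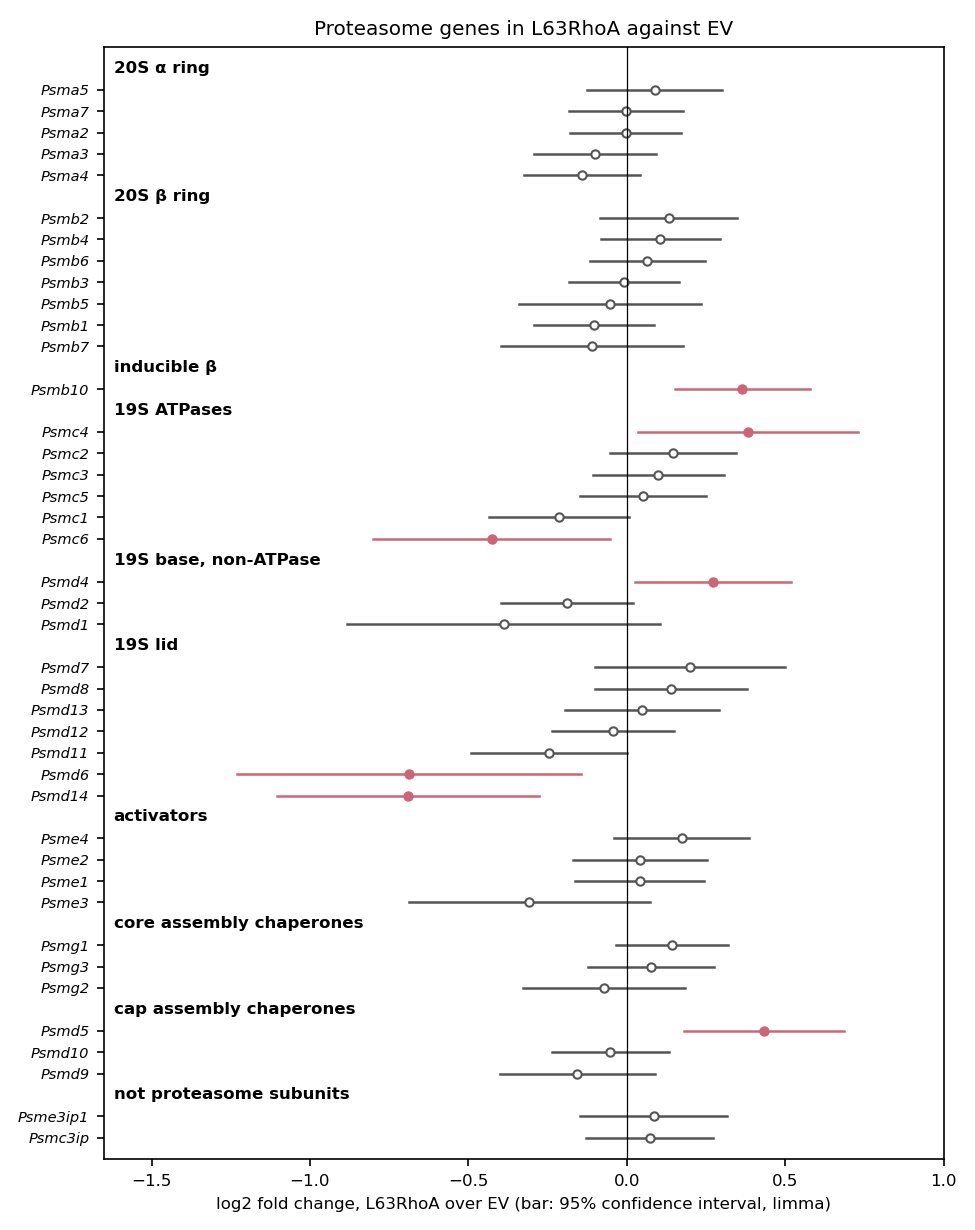
Each point is the log2 fold change of 1 of the 41 tested genes in L63RhoA over EV (x axis), grouped by the place of its product in the proteasome, with its 95% confidence interval from limma (n = 4 arrays a group). Filled red points mark the 7 genes at an adjusted p under 0.20. The constitutive core genes lie close to 0, between -0.14 and 0.13, and the cap genes spread from -0.69 to 0.38.

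In the constitutive core no gene was called and the differences were small. Of the α ring, which forms the gate of the barrel, 5 genes were tested, with 1 above and 4 below 0 and log2 fold changes from -0.14 to 0.09. Psma4 had the smallest p of them. Its log2 level was 11.91, 11.91, 11.80 and 11.88 on the EV arrays and 11.71, 11.63, 11.76 and 11.81 on the L63RhoA arrays. L63RhoA replicate 4 lay just above the lowest EV array, so that the groups overlapped narrowly, and the log2 fold change was -0.14 ± 0.08 (SE, adjusted p = 0.30). Psma3 differed by -0.10 (95% interval -0.29 to 0.09). Psma1 and Psma6 had 1 probe each, detected on 0 of 8 arrays, although both encode obligate subunits of the ring, and their levels are not known from these arrays.

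Of the constitutive β ring, 7 genes were tested, with 3 above and 4 below 0 and log2 fold changes from -0.11 to 0.13. It holds the 3 proteolytic subunits, encoded by Psmb5 (-0.05, 95% interval -0.34 to 0.23), which cleaves after hydrophobic residues, Psmb6 (0.06, -0.12 to 0.25), which cleaves after acidic ones, and Psmb7 (-0.11, -0.40 to 0.18), which cleaves after basic ones. None of these 3 intervals left out 0. Psmb2, a structural subunit, had the smallest p. It read 11.34, 11.24, 11.57 and 11.33 on the EV arrays and 11.36, 11.52, 11.56 and 11.56 on the L63RhoA arrays. EV replicate 3 was the highest of all 8 and L63RhoA replicate 1 was the lowest of its group, and the log2 fold change of 0.13 ± 0.10 (SE) had an adjusted p of 0.41. Psmb4, another structural subunit, differed by 0.11 (-0.08 to 0.29). Over the 12 constitutive core genes, the median was -0.0064, and their 95% intervals reached no lower than a fold of 0.759 and no higher than 1.27.

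Psmb10 stood outside that range. It encodes the inducible subunit that takes the place of the Psmb7 product in immunoproteasomes, the form induced by interferon and known for making peptides for antigen presentation. On the log2 scale it read 10.14, 9.96, 10.24 and 10.02 on the EV arrays and 10.33, 10.57, 10.43 and 10.49 on the L63RhoA arrays. Every L63RhoA array was above every EV array, with EV replicate 3 the highest of EV and L63RhoA replicate 1 the lowest of L63RhoA. The level was 1.29-fold higher in L63RhoA (95% interval 1.11 to 1.49), a log2 fold change of 0.36 ± 0.10 (SE, adjusted p = 0.096). Groups that did not overlap, with L63RhoA above, were found for 5.2% of all genes and for 2 of the 41 proteasome genes, Psmb10 and Psmg1, and groups apart with L63RhoA below for 4.72% of all genes and 0 of the 41. A second probe for Psmb10 also gave no overlap, with a log2 level of 9.76, 9.67, 9.82 and 9.72 in EV and 9.86, 9.92, 10.10 and 10.05 in L63RhoA, and a log2 fold change of 0.24 ± 0.09 (SE, adjusted p = 0.17 over all probes). Psmb10 had an adjusted p of 0.037 without EV replicate 3 and 0.030 without L63RhoA replicate 1.

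The other genes tied to the inducible proteasome did not pass either threshold with all arrays. Psmb8 and Psmb9, which encode the remaining inducible subunits and were left out by the rule, differed by 0.22 ± 0.14 (SE, adjusted p = 0.35) and -0.08 ± 0.09 (SE, adjusted p = 0.61). Without L63RhoA replicate 1, Psmb8 differed by 0.35 (adjusted p = 0.066), in a setting where 42.8% of all genes passed 0.20. Without EV replicate 3, Psmb8 differed by 0.28 (adjusted p = 0.23). Psmb9 did not pass with either array left out. Psme1 and Psme2, whose products form the interferon-inducible activator, both differed by 0.04, with 95% intervals of -0.16 to 0.24 and -0.17 to 0.25. Of 8 tested genes on a list of interferon-response genes, which includes Psmb8 and Psmb9, 1 was called higher and 3 lower at an adjusted p under 0.20, and 3 were above 0. Of all genes, 13.1% were called higher and 10.4% lower at this cutoff, and no test was run on the list. Irf1, an interferon-induced transcription factor, was the one called higher, by 0.35 on the log2 scale (adjusted p = 0.088). Irf7, the main factor behind type I interferon production, fell by 0.63 (adjusted p = 0.059), Tap1, a peptide transporter for antigen presentation, fell by 0.32 (adjusted p = 0.11), and Ifit3, an antiviral interferon-induced gene, fell by 0.23 (adjusted p = 0.16).

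The regulatory cap held 5 of the 7 called genes, 2 higher and 3 lower of 16 tested. The same cutoff of 0.20 called 23.6% of all genes, 13.1% higher and 10.4% lower. The cap's share was not tested against that of all genes. By brightest probe, 8 of 16 tested cap genes were above and 8 below 0, and the median log2 fold change was 0.0032. That median was -0.0947 with the mean of a gene's probes and -0.120 probe by probe. The median size of the log2 fold change, sign aside, was 0.21 in the cap, 0.09 in the constitutive core and 0.16 over all genes. The difference between the classes was not tested. The 95% intervals of the cap genes reached from a fold of 0.426 to one of 1.66.

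The lowest fold changes of the 41 genes were in the lid, the portion of the cap that removes ubiquitin, where 7 genes were tested with 3 above and 4 below 0. Psmd14 encodes the metalloprotease that cuts ubiquitin chains off substrates. Its log2 level was 10.66, 10.80, 10.48 and 10.99 on the EV arrays and 10.62, 10.03, 9.74 and 9.77 on the L63RhoA arrays. L63RhoA replicate 1 lay among the EV arrays, and the other L63RhoA arrays were below all of EV. The level was 1.61-fold lower in L63RhoA, a log2 fold change of -0.69 ± 0.19 (SE, adjusted p = 0.10). The adjusted p was 0.040 without EV replicate 3 and 0.013 without L63RhoA replicate 1, when the log2 fold change was -0.88.

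Psmd6, a scaffold subunit of the lid, showed the same arrangement of arrays. The arrays gave log2 levels of 7.64, 8.26, 7.70 and 8.39 on the EV arrays and 8.04, 7.13, 6.98 and 7.09 on the L63RhoA arrays. L63RhoA replicate 1 was higher than EV replicates 1 and 3, and the other L63RhoA arrays were below every EV array. The log2 fold change was -0.69 ± 0.25 (SE, adjusted p = 0.15), and without L63RhoA replicate 1 it was -0.93 (adjusted p = 0.020), the adjusted p without EV replicate 3 being 0.072. The EV arrays fell into a lower pair, replicates 1 and 3, and a higher pair, replicates 2 and 4, and without the higher pair the log2 fold change was -0.36 (adjusted p = 0.68). The second probe of Psmd6 gave -0.39 ± 0.15 (SE). In the authors' processed values the log2 fold change of Psmd6 was -0.49. By their brightest probes, the other lid genes did not pass with all arrays. Without L63RhoA replicate 1 the adjusted p was 0.076 for Psmd11, 0.087 for Psmd8 and 0.12 for Psmd7. In that setting 42.8% of all genes passed 0.20. With all arrays and by brightest probe, Psmd11 differed by -0.25 (adjusted p = 0.21), Psmd7 by 0.20 (0.38), Psmd8 by 0.14 (0.43), Psmd13 by 0.05 (0.81) and Psmd12 by -0.04 (0.79). The second probes of Psmd7 and Psmd12 were lower in L63RhoA and passed 0.20 (adjusted p = 0.068 and 0.12 over all probes), as given below.

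The 6 ATPases that unfold substrates split 4 above and 2 below 0. Psmc6 had the smallest p, with a log2 level of 6.66, 6.72, 6.37 and 6.88 on the EV arrays and 6.69, 5.87, 6.21 and 6.16 on the L63RhoA arrays. L63RhoA replicate 1 again lay within EV and the others below it, and the log2 fold change was -0.43 ± 0.17 (SE, adjusted p = 0.17). The adjusted p of Psmc6 was 0.069 without EV replicate 3 and 0.029 without L63RhoA replicate 1. Its log2 fold change was -0.22 both in the authors' processed values and without further background correction. Psmc4 went the other way, with a log2 level of 10.74, 10.29, 10.94 and 10.30 on the EV arrays and 10.69, 11.02, 10.99 and 11.08 on the L63RhoA arrays. The EV arrays fell into a higher pair, replicates 1 and 3, and a lower pair, replicates 2 and 4, and L63RhoA replicate 1 was lower than the higher EV pair. The level was 1.3-fold higher in L63RhoA, a log2 fold change of 0.38 ± 0.16 (SE, adjusted p = 0.17). Its adjusted p was 0.048 without EV replicate 3 and 0.074 without L63RhoA replicate 1, and without EV replicates 2 and 4, the lower pair, the log2 fold change was 0.11. Psmc2, Psmc3 and Psmc5 differed by 0.15, 0.10 and 0.05 and Psmc1 by -0.21, and none of them passed either threshold.

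Of the non-ATPase subunits of the base, Psmd4 was called and Psmd1 and Psmd2, by brightest probe, were not. The second probe of Psmd2 gave -0.34 ± 0.13 (SE, adjusted p = 0.17 over all probes). Psmd4 encodes a receptor for ubiquitin chains. Log2 levels of 11.89, 11.93, 12.19 and 11.95 were measured on the EV arrays and of 12, 12.33, 12.36 and 12.35 on the L63RhoA arrays. L63RhoA replicate 1 lay within the EV range and the other L63RhoA arrays above it, and the log2 fold change was 0.27 ± 0.11 (SE, adjusted p = 0.18). Leaving out EV replicate 3 gave an adjusted p of 0.073, and leaving out L63RhoA replicate 1 one of 0.040. Psmd1 and Psmd2 encode the largest scaffolds of the cap, to which ubiquitin receptors and shuttles bind, and differed by -0.39 (95% interval -0.88 to 0.11) and -0.19 (-0.40 to 0.02). Psmd2 was at -0.10 in the authors' processed values.

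**Figure D2:**
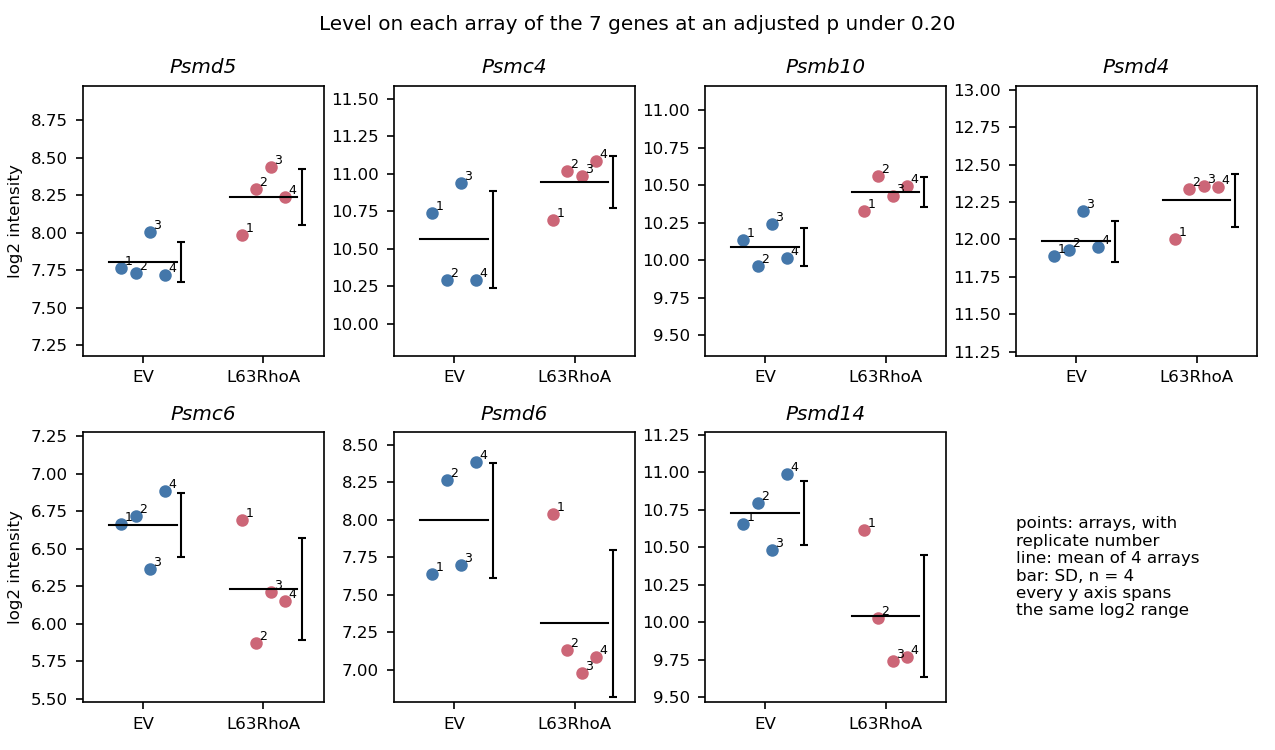
Log2 intensity (y axis) on each array of the 7 genes at an adjusted p under 0.20, with EV in blue, L63RhoA in red, the replicate number beside each point, the mean as a line and the SD as a bar (n = 4). L63RhoA replicate 1 is the L63RhoA array nearest to EV in all 7 panels, and in Psmb10 alone do the groups not overlap.

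Across these 7 genes, L63RhoA replicate 1 was the L63RhoA array nearest to EV in 7, and EV replicate 3 was the EV array nearest to L63RhoA in 6, Psmd6 being the exception. The first held for 27 of the 41 proteasome genes (65.9%) and for 55.8% of all genes tested, the second for 22 (53.7%) and for 49.4%, and both for 16 (39%) and for 35%. The arrangement was therefore one that the proteasome genes shared with the arrays as a whole. With L63RhoA replicate 1 left out, 6 of the 41 were called at an adjusted p under 0.05 (Psmb10, Psmd4 and Psmd5 higher, Psmc6, Psmd6 and Psmd14 lower), and so were 15.1% of all genes. With EV replicate 3 left out, 5 were called (Psmb10, Psmc4 and Psmd5 higher, Psmd14 and Psme3 lower), and so were 11% of all genes. With any of EV replicates 2 and 4 or L63RhoA replicates 2, 3 and 4 left out, none was called even at an adjusted p under 0.20, and without EV replicate 1, 5 were, among them Psmb10, Psmd5, Psmd14 and Psmd6. The share of all genes at 0.20 fell likewise, to between 1.11% and 1.81% in those 5 settings and to 12.6% without EV replicate 1. Without EV replicates 2 and 4, the log2 fold changes nearest to 0 among the 7 were 0.11 for Psmc4, 0.22 for Psmd4, 0.26 for Psmb10 and -0.28 for Psmc6, and 0.478% of all genes and none of the 7 were called at 0.20.

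**Figure D3:**
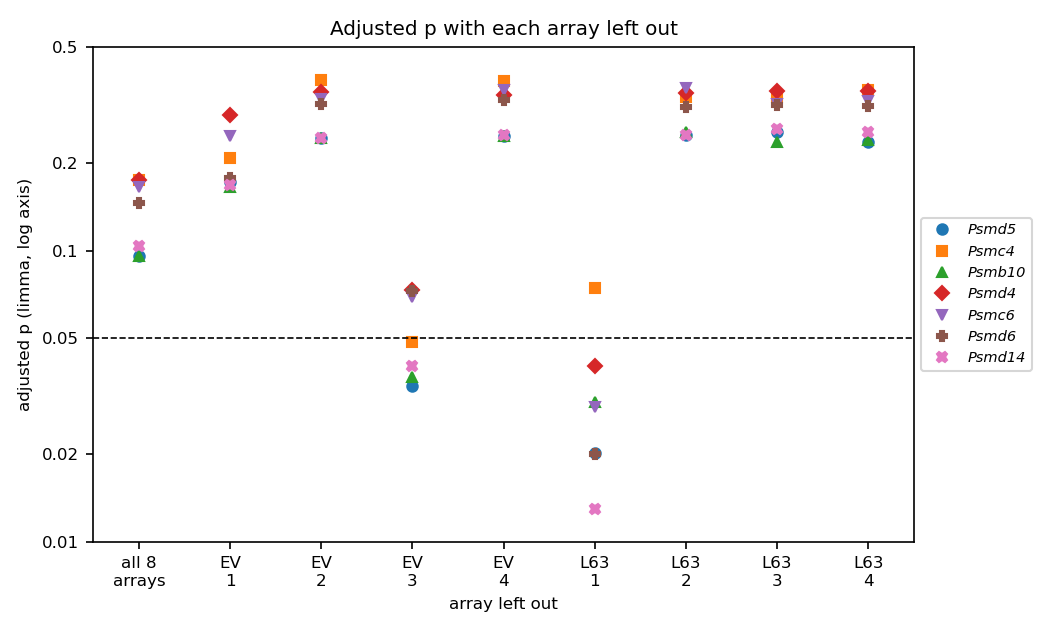
Adjusted p (y axis, log scale, limma) of the 7 genes with all 8 arrays and with each array left out in turn (x axis, L63 standing for L63RhoA), the dashed line marking 0.05. Points fall under the line when EV replicate 3 or L63RhoA replicate 1 is left out and in no other column.

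The activators, which open the core without ubiquitin, had no gene called, 3 of 4 above 0 and a median log2 fold change of 0.04. Psme4, which encodes the large nuclear activator, had the smallest p, with a log2 level of 9.64, 9.52, 9.62 and 9.45 on the EV arrays and 9.60, 9.63, 9.87 and 9.83 on the L63RhoA arrays. L63RhoA replicates 3 and 4 lay above every EV array and replicates 1 and 2 among them, and the log2 fold change was 0.17 ± 0.10 (SE, adjusted p = 0.28). Psme3, the nuclear relative of Psme1 and Psme2, differed by -0.31 (95% interval -0.69 to 0.07, adjusted p = 0.28), EV replicate 3 being the lowest of all 8 arrays at 7.66 and the other EV arrays at 8.25 to 8.47. Without that array the log2 fold change was -0.49 (adjusted p = 0.037), and without EV replicates 2 and 4 it was -0.05 (adjusted p = 0.93).

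The assembly chaperones are not in the finished proteasome, and 6 of their genes were tested, with 3 above and 3 below 0. Psmd5 encodes a chaperone that holds ATPases of the base before the cap is complete. In EV it read 7.76, 7.73, 8.0 and 7.72 on the log2 scale, and in L63RhoA 7.99, 8.29, 8.43 and 8.24. EV replicate 3 was just above L63RhoA replicate 1, and otherwise the groups were apart. The level was 1.35-fold higher in L63RhoA (95% interval 1.13 to 1.61), a log2 fold change of 0.43 ± 0.11 (SE, adjusted p = 0.096). That was the largest rise among the 41 genes with the main processing. In the authors' processed values Psmd5 was at 0.33, below Psmc4 at 0.36 and Psmb10 at 0.34. The adjusted p of Psmd5 was 0.034 without EV replicate 3 and 0.020 without L63RhoA replicate 1. The other chaperones of the cap, Psmd9 and Psmd10, differed by -0.16 (95% interval -0.40 to 0.09) and -0.05 (-0.24 to 0.13).

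Of the chaperones that build the core, Psmg1 was the second gene without overlap. The log2 levels were 8.11, 8.19, 8.14 and 8.02 on the EV arrays and 8.26, 8.28, 8.25 and 8.26 on the L63RhoA arrays. All L63RhoA arrays lay above all EV arrays and close to each other, but the difference was small, a log2 fold change of 0.14 ± 0.08 (SE, adjusted p = 0.28). Psmg2, by its brightest probe, and Psmg3 differed by -0.07 (95% interval -0.33 to 0.18) and 0.08 (-0.12 to 0.28). The second probe of Psmg2 is given below. The symbol rule also took Psmc3ip, a cofactor of meiotic recombination, and Psme3ip1, which binds the Psme3 product. Neither is a proteasome subunit, and they differed by 0.07 and 0.08 with adjusted p of 0.64 and 0.63. Without them, 19 of 39 genes were above 0.

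Several genes were read by more than 1 probe, and the probes did not always give the same result. For 16 genes there were 18 pairs of the brightest probe and another detected one, and in 9 pairs, of 9 genes, the log2 fold changes had opposite signs. The second probe of Psmd7, which encodes the partner of the Psmd14 product in the lid, had a log2 level of 10.32, 10.29, 10.21 and 10.14 on the EV arrays and 9.96, 9.80, 9.73 and 9.74 on the L63RhoA arrays. All L63RhoA arrays lay below all EV arrays on it, and its log2 fold change was -0.43 ± 0.09 (SE, adjusted p = 0.068 over all probes), against 0.20 for the brighter probe. For probes, no overlap with L63RhoA below was found for 4.91% of all and 1 of the 59 of the proteasome, this one, and with L63RhoA above for 4.5% of all and 3 of the 59.

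The second probe of Psmd12, a lid scaffold, had a log2 level of 8.46, 8.88, 8.43 and 8.82 on the EV arrays and 8.57, 7.90, 7.76 and 7.85 on the L63RhoA arrays. L63RhoA replicate 1 lay within EV and the others below it, with a log2 fold change of -0.63 ± 0.18 (SE, adjusted p = 0.12 over all probes), against -0.04 for the brighter probe. The second probe of Psmg2 gave 0.38 ± 0.11 (SE, adjusted p = 0.12 over all probes) against -0.07, and that of Psmd9 gave 0.25 ± 0.15 (SE) against -0.16. An exact permutation test of the difference between probes of a gene (two-sided, 4 arrays against 4, smallest possible p = 0.0286) gave p = 0.0571 for Psmd7 and Psmd12 and p = 0.0857 for Psmd9 and Psmg2, and the smallest of the 18 after Benjamini-Hochberg adjustment was 0.321. With this smallest possible p, no pair on its own could reach 0.05 after the adjustment, so the adjusted values cannot decide whether the probes of a gene differ. The paired probes of Psmb10, Psmd6, Psmd2 and Psmb2 went the same way as each other. Probe by probe, 13 of 59 were called at an adjusted p under 0.20, 6 higher and 7 lower, against 19.6% of all probes, and none at 0.05, against 0.636%. Higher calls were 10.1% and lower calls 9.58% of all probes. The exons that the probes bind were not analysed here, and a change in transcript form was not tested.

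**Figure D4:**
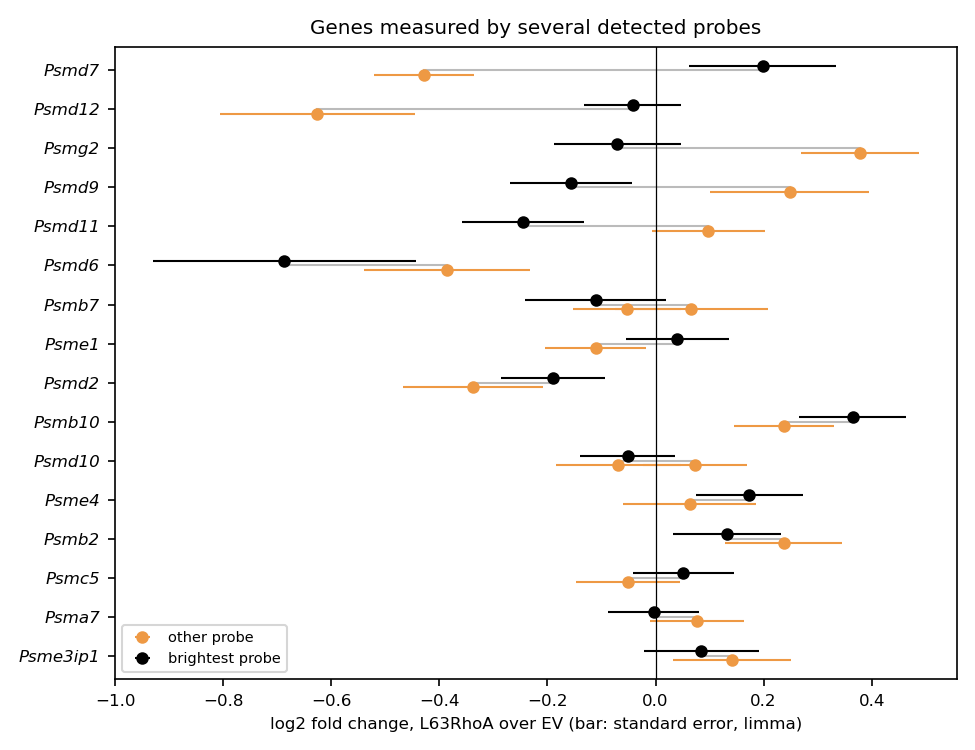
Log2 fold change in L63RhoA over EV (x axis) with its standard error (limma, n = 4 arrays a group) for each detected probe of the 16 genes with more than 1, the brightest probe in black and others in orange. The probes of Psmd7, Psmd12, Psmg2 and Psmd9 lie farthest apart, and those of Psmb10 and Psmd6 lie on 1 side of 0.

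The sequence before the start of each gene was read from RefSeq (GRCm38.p6), which gave 41 promoters for 37 of the 43 genes. The 250 bases upstream of the start were searched on both strands for the letters of 4 elements known from genes of this kind. The core of the antioxidant response element (TGACNNNGC), bound by the Nfe2l1 and Nfe2l2 proteins, was in 5 of the 41 (12.2%) and in 10.2% of 32851 promoters of all genes. The CCAAT box (CCAAT), bound by nuclear factor Y, was in 14 (34.1%), and in 33.8% of all. The GC box (GGGCGG) was in 22 (53.7%), and in 32.7% of all, and the ETS site (CCGGAAG) in 14 (34.1%), and in 6.91% of all. Proteasome promoters thus held the GC box and the ETS site more often than promoters at large, as a description with no test. Shown are the 3 called genes with the smallest p, Psmb10 (chr8:105938393-105938642, minus strand), Psmd5 (chr2:34870963-34871212, minus strand) and Psmd14 (chr2:61711444-61711693, plus strand), and Psmc6 (chr14:45329574-45329823, plus strand), the only one of the 7 that held the antioxidant response element letters. Each is written 5′ to 3′ along its gene, with matches to any of the 4 elements on either strand in capitals.
Psmb10: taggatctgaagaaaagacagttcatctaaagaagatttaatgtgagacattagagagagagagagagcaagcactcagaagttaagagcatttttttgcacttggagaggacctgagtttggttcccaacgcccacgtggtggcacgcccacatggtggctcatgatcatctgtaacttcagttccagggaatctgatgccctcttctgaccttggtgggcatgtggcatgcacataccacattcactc
Psmd5: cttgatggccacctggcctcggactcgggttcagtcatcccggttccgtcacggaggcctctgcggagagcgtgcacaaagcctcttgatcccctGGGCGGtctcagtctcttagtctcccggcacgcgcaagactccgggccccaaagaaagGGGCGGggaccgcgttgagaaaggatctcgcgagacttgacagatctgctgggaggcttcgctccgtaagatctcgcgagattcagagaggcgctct
Psmd14: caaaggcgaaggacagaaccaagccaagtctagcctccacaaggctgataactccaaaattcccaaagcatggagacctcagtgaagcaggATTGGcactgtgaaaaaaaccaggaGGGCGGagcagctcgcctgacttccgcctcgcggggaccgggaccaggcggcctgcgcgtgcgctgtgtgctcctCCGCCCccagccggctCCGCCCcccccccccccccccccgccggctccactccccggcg
Psmc6: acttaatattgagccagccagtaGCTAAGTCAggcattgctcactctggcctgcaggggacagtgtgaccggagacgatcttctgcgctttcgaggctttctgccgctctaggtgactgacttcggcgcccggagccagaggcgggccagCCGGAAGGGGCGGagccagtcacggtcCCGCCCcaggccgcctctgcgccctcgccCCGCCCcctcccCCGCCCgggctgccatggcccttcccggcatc

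The window of Psmb10 held none of the 4 elements, and its GC content was 46.8%, against 62% for Psmd5, 66.8% for Psmd14 and 68% for Psmc6. Psmd5 held 2 GC boxes, and Psmd14 had 1 CCAAT box (read on the opposite strand as ATTGG) and 3 GC boxes. Psmc6 held 4 GC boxes, 1 ETS site directly followed by a GC box, and 1 antioxidant response element core, which lies on the opposite strand and so reads GCTAAGTCA here. The upregulated Psmd5 and the downregulated Psmd14 and Psmc6 all held GC boxes. A match of letters is not a bound site.

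Genes that work with the proteasome but lie outside the symbol rule were as divided as its subunits. Of 53 listed genes for ubiquitin, associated proteins, inducible subunits, regulators and shuttles, 31 were tested, with 14 above 0 and a median log2 fold change of -0.0097. None passed an adjusted p of 0.05, against 0.706% of all genes. At 0.20, 2 were called higher and 3 lower, against 13.1% and 10.4% of all genes. These counts moved with the processing. They were 8 and 6 in the authors' processed values, where 24.9% of all genes passed, and 0 and 2 with median scaling, where 6.69% did. Nfe2l1 encodes the transcription factor that raises proteasome genes when proteasome activity falls short, and differed by 0.06 ± 0.10 (SE, adjusted p = 0.73). Nfe2l2, its relative that answers to oxidative stress, differed by 0.20 ± 0.10 (SE, adjusted p = 0.24, and 0.196 in the authors' processed values). Maff, a small partner of both, fell by 0.51 ± 0.15 (SE, adjusted p = 0.11, with a log2 fold change of -0.31 in the authors' processed values), and Nfyb, a subunit of nuclear factor Y, was higher by 0.23 ± 0.09 (SE, adjusted p = 0.17).

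Among the associated proteins, Uchl5, a deubiquitinase of the cap, fell by 0.39 ± 0.17 (SE, adjusted p = 0.19). Pomp, which matures the core, differed by 0.12 ± 0.08 (SE, adjusted p = 0.36, and 0.19 in the authors' processed values). Rad23b encodes a shuttle that brings ubiquitylated proteins to the cap. The EV arrays spanned log2 levels of 9.46 to 10.77 and the L63RhoA arrays 9.01 to 10.06, overlapping ranges, and the log2 fold change of -0.87 ± 0.29 (SE, adjusted p = 0.13) was larger than that of any proteasome gene. Bag6, a chaperone that hands faulty proteins to the proteasome, was higher by 0.27 ± 0.11 (SE, adjusted p = 0.19). Without EV replicate 3 the adjusted p was 0.032 for Rad23b, 0.049 for Maff, 0.048 for Bag6, 0.11 for Uchl5 and 0.20 for Nfyb, and without L63RhoA replicate 1 it was 0.028, 0.018, 0.11, 0.032 and 0.084 in the same order. Without EV replicates 2 and 4 it was 0.54 or more for all of them, and the log2 fold change of Rad23b was -0.46. Psmf1, Psma8, Psmb11, Psmd3, Psme2b and Psmg4 had no probe by that name and were not analysed here.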

How the data were processed

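The starting point was the deposited table of signal intensities, linear and with a deposited detection p-value for every probe and array. The authors extracted them with GenomeStudio from iScan scans, and their methods name a variance stabilising transformation and quantile normalisation in lumi and permutation p-values for the comparison. The authors' processed values on the log2 scale (median 6.64 per array) served as an alternative. The sources used here state no version of these tools. The lowest deposited intensity was 75.2, so a background remained in it.

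Probes were named by platform annotation (1 symbol for 23978, none for 1719), and symbols were updated through RefSeq gene identifiers for 23962. Intensities were background corrected, quantile normalised and put on the log2 scale with neqc (limma 3.58.1 under R 4.3.3, with an offset of 16). A probe counted as detected if its detection p was below 0.05 on 4 or more arrays, as for 12349 probes, 11634 of them named, and the brightest probe stood for each of 8360 genes. The groups were compared by limma's moderated test (two-sided, 4 arrays against 4), in place of the methods' permutation test, with Benjamini-Hochberg adjustment over all genes. The fit was tested on simulated data with independent noise for each gene and array. That test does not cover the pattern shared over genes within the groups. The number of arrays limits the precision.

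The proteasome genes, their classes and the other gene lists were chosen with earlier results of these data known. Named are genes at an adjusted p under 0.20, the gene of smallest p and that of brightest probe in each class, the interferon-inducible members and genes with several probes. Alternatives covered background correction, normalisation, filters, variance model, replicate block, test, probe choice and arrays left out.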

Additional observations from a re-analysis of the deposited data

Results flagged for a closer look

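In 9 of 82 sets of 4 arrays (41 genes in 2 groups), 1 array lay so far from the other 3 that the ratio of its gap to the whole range passed the critical value of Dixon's test at 95%. Chance alone passes about 1 set in 20 if the sets are independent, but these sets share the same arrays. The share over all genes tested was not computed, so the count cannot be read as particular to the proteasome genes. L63RhoA replicate 1 was that array in 4: highest for Psmd11 (ratio 0.897) and Psmd6 (0.853), and lowest for Psmd4 (0.928) and Psme3ip1 (0.915). EV replicate 3 was that array in 3: highest for Psmd5 (0.854) and Psmb4 (0.842), and lowest for Psmb7 (0.91). EV replicate 4 was highest for Psma3 (0.866) and L63RhoA replicate 4 lowest for Psmb3 (0.85). For Psmd6 the array read 8.04 and the nearest of the others 7.13 on the log2 scale, for Psmd4 12 and 12.33, and for Psmd5 8.0 and 7.76. Psmd4, Psmd5 and Psmd6 are among the 7 genes at an adjusted p under 0.20, and their values without the array in question stand with the report. Whether these arrays differ in handling or in the cells was not tested.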

How the results depend on the processing

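No proteasome gene passed an adjusted p of 0.05 under median scaling, the other filters on dim probes, the replicate block, the unmoderated test or either other choice of probes. Psmb10 did, as 1 gene higher and none lower, without further background correction, in the authors' processed values (adjusted p = 0.0496) and with a variance trend and robust estimation. Of all genes, 1.35%, 1.39% and 1.66% passed 0.05 in these settings, in the same order, against 0.706% in the main fit. Array weights called 4 higher and 5 lower, and 25.1% of all genes. At an adjusted p under 0.20, where 4 were higher and 3 lower, lower calls numbered 6 under those 3 settings, 5 with probes detected on all 8 arrays and with the mean of a gene's probes, 7 probe by probe and 0 in the unmoderated test. With no filter, 2 were higher and 1 lower, with median scaling 1 was higher, and with array weights 9 were higher and 11 lower. The share of all genes at 0.20 moved as well, from 23.6% to between 24.9% and 27% under the 3 settings that called Psmb10 alone at 0.05. It was 5.96% with no filter, 6.69% with median scaling, 9.01% in the unmoderated test and 49.2% with array weights. With probes detected on all 8 arrays it was 26.8%, with the mean of a gene's probes 21.9%, and probe by probe 19.6% of all probes. Leaving out single arrays, calls at 0.05 ranged from 0 to 3 in each direction, and at 0.20 from 0 to 7 higher and from 0 to 9 lower. The share of all genes ranged likewise, from 0.203% to 15.1% at 0.05 and from 1.11% to 42.8% at 0.20. Without EV replicates 2 and 4, 0 were higher and 0 lower at 0.20, against 0.478% of all genes. The cause of these differences was not tested.

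Deviations of same-numbered arrays correlated at r between -0.23 and 0.27, with 1 of 4 pairs over 0.1. Of 4 L63RhoA arrays, 1 correlated best with its own number. L63RhoA replicates 2, 3 and 4 all correlated best with EV replicate 3 (r = 0.32, 0.27 and 0.31). That array stood apart on the pattern holding 48.2% of the variance within groups, so these values cannot decide whether the replicate numbers pair the arrays. With the replicate number as a block, 3 were higher and 3 lower at 0.20 and 0 at 0.05. Of all genes, 15.8% passed 0.20 and 0.215% passed 0.05 with this block.

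Class medians of the log2 fold change lay between -0.120 and 0.126 in the settings listed here. Median scaling, which moved the median of all genes to 0.049, gave 0.0702 for all proteasome genes, 0.0684 for the cap, 0.126 for the activators and 0.0962 for the assembly chaperones. For the chaperones it was 0.0392 with array weights, 0.110 with the mean of a gene's probes and 0.0747 probe by probe. The cap was at -0.0947 with the mean of probes and -0.120 probe by probe, where the core was at 0.0307. Without EV replicates 2 and 4 it was 0.00014 for all proteasome genes and 0.0227 for the core. With single arrays left out, the ranges were -0.00012 to 0.0619 for all, -0.0148 to 0.0213 for the core, -0.0404 to 0.0139 for the cap and 0.0040 to 0.0389 for the chaperones.

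Of 1020 values of 51 genes, 36 changed sign, 12 of them with all arrays kept, and none of these belonged to the 7 called genes. Median scaling gave Psma2 0.0103, Psma7 0.0702, Psmb5 0.0108, Psmd10 0.0262, Psmd12 0.0331, Psmg2 0.0114 and Psmb9 0.0033. The mean of a gene's probes gave Psma7 0.0363, Psmd7 -0.115, Psmd9 0.0462, Psme1 -0.0354 and Psmg2 0.153. Without EV replicates 2 and 4, Psma7 was at 0.0291, Psmb5 at 0.120, Psmb7 at 0.0227, Psmc3 at -0.0020, Psmc3ip at -0.0235, Psmd10 at 0.0118, Psmd13 at -0.0651 and Psme1 at -0.0584. Leaving out single arrays, Psma2 ranged from -0.0210 to 0.0250, Psma7 from -0.0248 to 0.0230, Psmb3 from -0.0224 to 0.0135, Psmb5 from -0.121 to 0.0342, Psmd13 from -0.0202 to 0.110, Psme1 from -0.0138 to 0.0844, Psme2 from -0.0063 to 0.0884, Psmg2 from -0.137 to 0.0231 and Nfe2l1 from -0.0144 to 0.141.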
